A study of Mus musculus with 12 samples.

Results

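Calcium signals tell a T cell that its receptor has been engaged, and the genes described here build that pathway from the store in the endoplasmic reticulum to the nucleus. Stim1 senses an emptied store and opens the plasma membrane channel made of Orai1. Calcium-bound calmodulin then activates calcineurin, a phosphatase whose catalytic subunits are encoded by Ppp3ca and Ppp3cb, and calcineurin strips phosphate from NFAT factors so that they enter the nucleus. Calmodulin also activates the kinases encoded by Camk4, which is abundant in thymocytes and phosphorylates CREB, and Camk2d, a subunit of CaMKII. Signals of this kind accompany the pre-TCR in thymocytes that carry neither CD4 nor CD8.

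The 10 genes were chosen by name: Camk4, Camk2d, Ppp3ca, Ppp3cb, Nfatc1, Nfatc2, Nfatc3, Itpr1, Stim1 and Orai1. Of these, 9 were followed through the highest-mean row named for them by the platform annotation, among 19938 named genes. Itpr1, an IP3 receptor gene, was not analysed here. All 9 lay above the filter on dim genes that left 14953 for testing, and each of the 9 had 1 row.

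The study measured RNA on Affymetrix Mouse Gene 1.0 ST arrays in 3 groups of C57/BL6 samples taken from the thymus. There were 6 arrays of T cell lymphoma cells sorted from TCF-1 KO mice aged 12 to 40 weeks, 3 of TCF-1 KO DN3 thymocytes and 3 of WT DN3 thymocytes, both from mice aged 8 to 12 weeks. Lymphoma and TCF-1 KO DN3 arrays thus share the loss of TCF-1, an HMG-box factor of the T lineage, and the ages of tumour-bearing mice began where those of the DN3 donors ended. DN3 is the stage at which the T cell receptor beta gene is rearranged. The labels do not say how the allele was made, which surface markers set the sort gates, or whether any mice were littermates. The p-values rest on the spread among arrays within each group, whatever its source.

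Array medians lay between 5.30 and 5.39 on the log2 scale, and the number of arrays limits the precision. The arrays fell into 2 sets by 34 unnamed rows: replicate 1 of both DN3 groups and lymphomas 1 and 2 had medians of 6.02 to 6.35 over these rows, and the other 8 arrays 8.34 to 9.04. These are called the smaller and the larger array set, and each holds arrays of every group. Xist stood at 4.13 to 4.40 on lymphomas 1, 2 and 6 and TCF-1 KO replicate 3 and at 10.10 to 10.58 on the remaining arrays, so the sexes, which the labels do not give, were not balanced. Il2ra, the CD25 gene that marks DN3 cells, stood at 9.89 to 10.62 in lymphomas, 10.37 to 10.88 in TCF-1 KO DN3 and 10.71 to 10.77 in WT DN3 cells. Rag1, another DN3 marker, was lower in lymphomas, at 7.42 to 9.63. It stood at 9.93 to 10.18 in TCF-1 KO DN3 and 10.30 to 10.53 in WT DN3 cells. Cd4 stood at 4.80 to 5.26 over all arrays, near the filter of 4.78. Of 5 NK and 5 B cell markers with a row, 4 and 3 lay under that filter. Signal of the targeted gene itself was not analysed here.

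In TCF-1 KO DN3 cells the kinase gene Camk4 and the calcineurin gene Ppp3ca rose 2.08-fold and 1.95-fold over WT DN3 cells, and in the lymphomas Camk4 rose 3.97-fold and Camk2d 2.54-fold over WT DN3 cells. The second calcineurin gene, the 3 NFAT genes, Stim1 and Orai1 were not called in any comparison. Differences are log2 signal of the first group minus the second, tested with limma over all 14953 genes on the 2 groups alone, and a gene was called at a Benjamini-Hochberg adjusted p under 0.05. The comparisons share arrays, so their values are given side by side. Sorted bulk samples cannot tell fewer cells of a type from less RNA per cell.

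**Figure D1:**
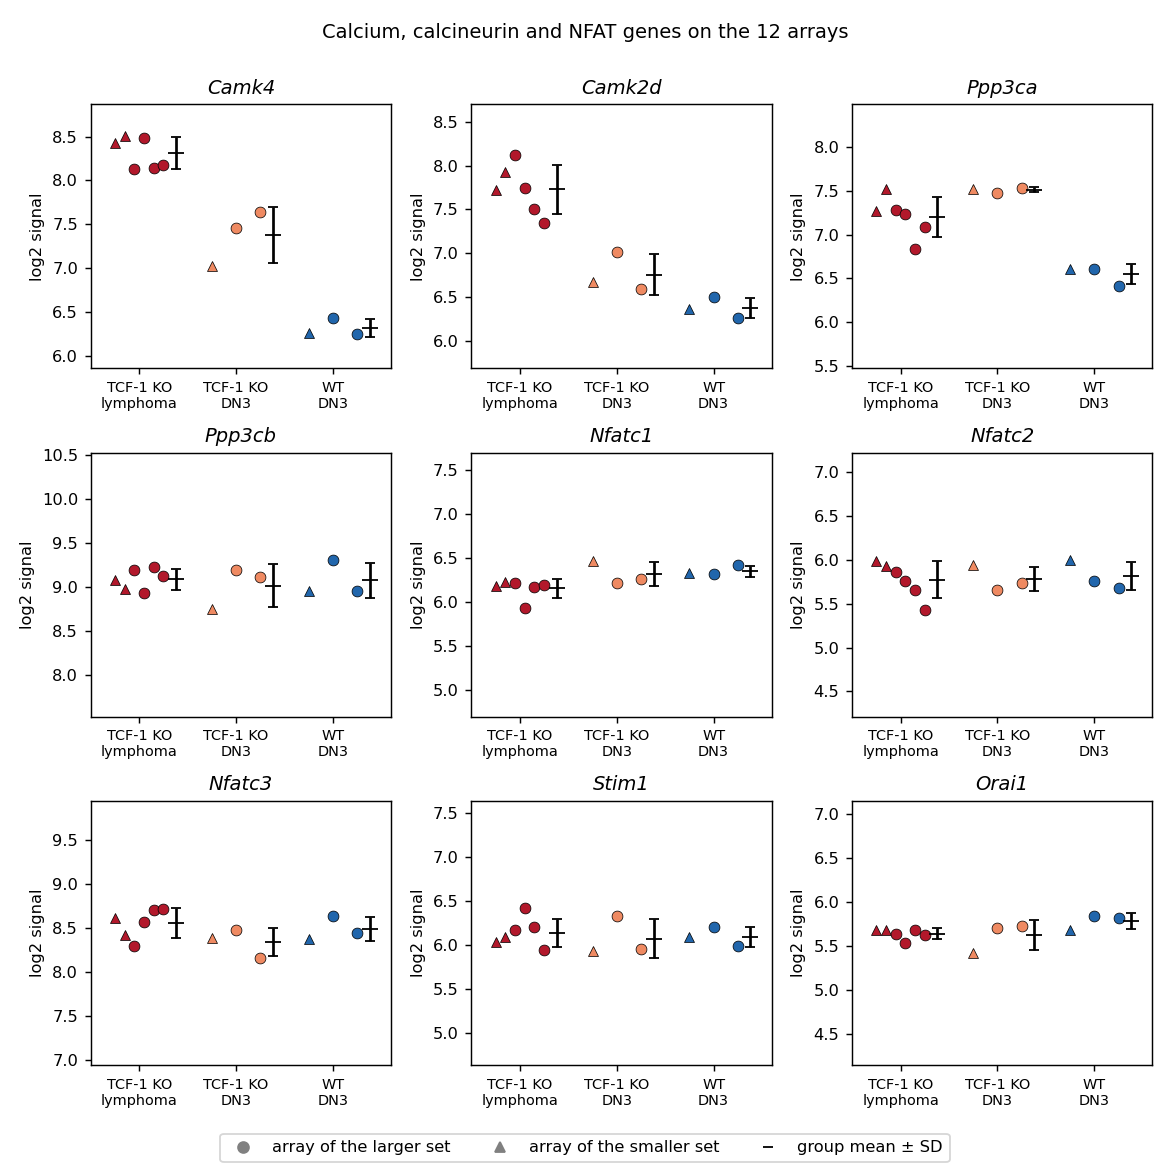
Log2 signal of each of the 9 genes (y axis, every panel spanning the same number of log2 units) on every array, by group (x axis: TCF-1 KO lymphoma, TCF-1 KO DN3, WT DN3). Circles are arrays of the larger set and triangles arrays of the smaller set, and bars give the group mean ± SD (n = 6, 3 and 3). Camk4 separates all 3 groups, Ppp3ca separates both TCF-1 KO groups from WT DN3 cells, and Camk2d is highest in the lymphomas.

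Camk4, the calmodulin-dependent kinase IV gene, differed in all 3 comparisons. Its log2 signal was 8.13 at the lowest, 8.30 at the median and 8.51 at the highest of the 6 lymphomas. It was 7.03, 7.46 and 7.64 on TCF-1 KO DN3 replicates 1, 2 and 3, and 6.27, 6.44 and 6.25 on the WT DN3 replicates in the same order. The 3 groups did not overlap: every lymphoma lay above every TCF-1 KO DN3 array, and every TCF-1 KO DN3 array above every WT DN3 array. Of all genes, 22.0% did not overlap between the DN3 groups. The share was 10.3% for lymphomas against WT DN3 cells and 13.6% for lymphomas against TCF-1 KO DN3 cells.

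The rise in TCF-1 KO DN3 cells over WT DN3 cells was 1.05 (SE 0.16, limma adjusted p = 0.00841), a 2.08-fold difference with a 95% interval of 1.63 to 2.64. In the lymphomas Camk4 stood 1.99 above WT DN3 cells (SE 0.11, limma adjusted p = 6.47e-07), or 3.97-fold (3.35 to 4.70). The lymphomas also stood 0.93 above TCF-1 KO DN3 cells (SE 0.14, limma adjusted p = 0.00279). These calls were kept under every alternative tried, with adjusted p up to 0.0406, 7.81e-05 and 0.0325 in the same order of comparisons. Within the smaller and the larger array set the differences were 0.76 and 1.20 for TCF-1 KO against WT DN3, 2.20 and 1.88 for lymphoma against WT DN3, and 1.44 and 0.68 for lymphoma against TCF-1 KO DN3. Without TCF-1 KO replicate 3, the DN3 array with low Xist, Camk4 was 0.92 higher than in WT DN3 cells.

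The CD8 coreceptor genes moved with Camk4 in part. Cd8b1 rose by 1.40 in TCF-1 KO DN3 cells over WT DN3 cells (limma adjusted p = 0.000455) and by 1.43 in lymphomas over WT DN3 cells (limma adjusted p = 0.0026). Cd8a, which rose by 1.21 in TCF-1 KO DN3 cells over WT DN3 cells (limma adjusted p = 0.00111, up to 0.129 over the alternatives), ranged from 5.82 to 7.70 over the lymphomas, against 5.67 to 6.03 in WT DN3 cells. Between lymphomas and TCF-1 KO DN3 cells, where Camk4 rose, 0 of the 3 coreceptor genes was called, against 6.62% of all genes. A list of 3 genes is too short to be set against that share. With the replicate block 1 of the 3 was lower in lymphomas. The mean log2 level of the 3 genes was 6.00 to 6.72 in lymphomas, 6.50 to 6.52 in TCF-1 KO DN3 and 5.42 to 5.72 in WT DN3 cells. Of 10 DN3 markers, 4 fell and none rose in lymphomas against WT DN3 cells, where 5.82% of all genes were called. The 4 were Rag1 (-1.92), Rag2 (-1.39), Dntt (-0.94) and Cd3g (-0.35). Against TCF-1 KO DN3 cells 2 fell and 1 rose in lymphomas, where 6.62% of all genes were called. Between the DN3 groups 1 fell and none rose, against 1.99% of all genes. The summed log2 levels of the 10 were 85.8 to 91.8 in lymphomas, 90.7 to 92.5 in TCF-1 KO DN3 and 92.6 to 94.1 in WT DN3 cells. Some B cell and stromal markers differed in the lymphomas as well. Of the tested markers of other types, 6 myeloid and dendritic, 1 NK and 3 erythroid, none was called in either lymphoma comparison. The B cell receptor chain gene Cd79b stood at 4.98 to 5.51 in lymphomas, 5.88 to 6.14 in TCF-1 KO DN3 and 6.05 to 6.22 in WT DN3 cells, and fell by 0.95 against WT DN3 cells (limma adjusted p = 0.000216) and by 0.82 against TCF-1 KO DN3 cells (limma adjusted p = 0.00186). It was 1 of 2 B cell markers above the filter, and the 5 with a row summed to log2 levels of 22.9 to 23.5 in lymphomas, 24.3 to 24.7 in TCF-1 KO DN3 and 23.8 to 24.2 in WT DN3 cells. Among 6 markers of thymic stroma, the epithelial gene Epcam fell by 1.05 in lymphomas against WT DN3 cells (limma adjusted p = 0.000522) and by 1.06 against TCF-1 KO DN3 cells (limma adjusted p = 0.00191), and Foxn1 fell by 0.36 against TCF-1 KO DN3 cells (limma adjusted p = 0.0356). The remaining stromal markers were not called: 5 of the 6 did not pass against WT DN3 cells and 4 against TCF-1 KO DN3 cells. The stroma list summed to 31.6 to 32.5 in lymphomas, 33.6 to 34.9 in TCF-1 KO DN3 and 32.8 to 33.9 in WT DN3 cells. The part of the coreceptor, DN3, B cell and stromal markers in the differences of Camk4, Camk2d and Ppp3ca was not tested.

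Over the 12 arrays the genes with the profile nearest to that of Camk4 were Dusp10, a phosphatase of JNK and p38, the chemokine receptor gene Ccr4, and Zfp36, which encodes an mRNA decay factor. Nearness is the root mean square difference between log2 values after centring each gene on its own mean, and it was 0.25, 0.27 and 0.31 for these genes, against a median of 0.86 over all genes tested. Dusp10 averaged 9.47 in lymphomas, 8.40 in TCF-1 KO DN3 and 7.48 in WT DN3 cells.

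Camk2d, which encodes the delta subunit of CaMKII, was highest in the lymphomas. Its log2 signal was 7.35 at the lowest, 7.73 at the median and 8.12 at the highest of the 6 tumours. TCF-1 KO DN3 replicates 1, 2 and 3 stood at 6.67, 7.02 and 6.59, and the WT DN3 replicates at 6.37, 6.50 and 6.27. No array of one group overlapped another group, but the gap between TCF-1 KO and WT DN3 arrays was small. Between the DN3 groups 22.0% of all genes showed no overlap, against 10.3% and 13.6% for lymphomas against WT and TCF-1 KO DN3 cells.

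Camk2d rose by 1.35 in lymphomas over WT DN3 cells (SE 0.15, limma adjusted p = 0.000157), a 2.54-fold difference (2.03 to 3.19). It rose by 0.97 in lymphomas over TCF-1 KO DN3 cells (SE 0.16, limma adjusted p = 0.00468), or 1.96-fold (1.53 to 2.50). In the larger array set alone lymphomas stood 0.87 above TCF-1 KO DN3 cells, with an adjusted p of 0.0674. Between TCF-1 KO and WT DN3 cells Camk2d differed by 0.38 (SE 0.14) and was not called (limma adjusted p = 0.211). With the replicate number as a block the same difference passed (limma adjusted p = 0.0433), in a fit that called 9.23% of all genes.

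Of the 10 genes, 6 have a window in RefSeq's promoter table (GRCm38.p6), and the 250 bases before the start are printed for a pair of them. The Camk2d window is shown because Camk2d is the called gene among the matched ones, and the Nfatc3 window because it is the 1 of 8 windows of these genes that holds a TCF/LEF core. Capitals mark the cores searched on both strands, CTTTGA or CTTTGT for TCF/LEF factors and GGAAA, which reads TTTCC on the other strand, for NFAT. No marked cores overlap.
Camk2d, chr3:126596701-126596950, plus strand: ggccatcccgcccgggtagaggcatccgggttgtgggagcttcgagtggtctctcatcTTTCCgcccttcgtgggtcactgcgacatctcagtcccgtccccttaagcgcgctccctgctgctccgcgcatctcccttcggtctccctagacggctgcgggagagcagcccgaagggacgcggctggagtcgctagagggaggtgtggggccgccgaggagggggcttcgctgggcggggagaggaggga
Nfatc3, chr8:106058568-106058817, plus strand: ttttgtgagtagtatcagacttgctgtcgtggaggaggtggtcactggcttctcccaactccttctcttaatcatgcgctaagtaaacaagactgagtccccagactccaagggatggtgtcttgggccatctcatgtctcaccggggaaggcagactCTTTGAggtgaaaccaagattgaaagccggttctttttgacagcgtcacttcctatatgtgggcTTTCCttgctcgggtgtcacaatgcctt
The Camk2d window holds 1 NFAT core, which begins 192 bases before the start, and no TCF/LEF core. The Nfatc3 window, 1 of 2 for that gene, holds a TCF/LEF core 92 bases before the start and an NFAT core 28 bases before it. A TCF/LEF core occurs in 27.6% and an NFAT core in 55.6% of all 32851 windows, and 5 of the 8 windows of these genes hold an NFAT core. A match is a description of letters and not of binding.

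The profile nearest to that of Camk2d belonged to P2rx7, which encodes an ATP-gated cation channel, at a root mean square difference of 0.18 against a median of 0.66 over all genes tested. P2rx7 stood at 6.46 to 6.98 in lymphomas, 5.81 to 6.25 in TCF-1 KO DN3 and 5.59 to 5.68 in WT DN3 cells. It rose by 1.11 in lymphomas over WT DN3 cells (SE 0.12, limma adjusted p = 0.000123) and by 0.76 in lymphomas over TCF-1 KO DN3 cells (SE 0.14, limma adjusted p = 0.0073). P2rx7 was picked here by its nearness, so these differences largely restate those of Camk2d. Slc37a3, a sugar phosphate carrier family gene, and Timp2, a metalloproteinase inhibitor gene, followed at 0.19 and 0.21.

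The 2 calcineurin catalytic genes differed in their profiles. Ppp3ca, the alpha isoform, stood at 6.83 at the lowest, 7.25 at the median and 7.52 at the highest of the lymphomas. It stood at 7.52, 7.47 and 7.53 in TCF-1 KO DN3 cells and at 6.61, 6.61 and 6.42 in WT DN3 cells. Every array without TCF-1 lay above every WT DN3 array, and the lymphomas overlapped the TCF-1 KO DN3 arrays at their upper end. Against WT DN3 cells, 22.0% of all genes showed no overlap in TCF-1 KO DN3 cells and 10.3% in lymphomas.

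Ppp3ca rose by 0.96 in TCF-1 KO DN3 over WT DN3 cells (SE 0.11, limma adjusted p = 0.00259), or 1.95-fold (1.64 to 2.31), and it was called under every alternative tried, with adjusted p up to 0.0167. In lymphomas it rose by 0.66 over WT DN3 cells (SE 0.13, limma adjusted p = 0.00924), or 1.57-fold (1.30 to 1.91). That call was lost in the larger array set alone (0.59, adjusted p = 0.0572) and without WT DN3 replicate 3 (0.59, adjusted p = 0.0637). Lymphomas differed from TCF-1 KO DN3 cells by -0.31 (95% interval -0.59 to -0.03), which was not called (limma adjusted p = 0.166). Its nearest profiles were those of the transcription factor gene Klf7, Pdlim5 and the granzyme gene Gzma, at root mean square differences of 0.15, 0.18 and 0.18 against a median of 0.42.

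Ppp3cb, the beta isoform, stood at 8.93 at the lowest, 9.11 at the median and 9.23 at the highest of the lymphomas. It stood at 8.75, 9.20 and 9.12 in TCF-1 KO DN3 cells and at 8.96, 9.31 and 8.96 in WT DN3 cells, so that all 3 groups overlapped. TCF-1 KO DN3 cells differed from WT DN3 cells by -0.06 (95% interval -0.39 to 0.28), and lymphomas from WT DN3 cells by 0.01 (-0.21 to 0.24). A 2-fold change of Ppp3cb lies outside both intervals.

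Of the NFAT genes, which encode the factors that calcineurin dephosphorylates, none was called. Nfatc1 stood at 5.93, 6.19 and 6.23 at the lowest, median and highest lymphoma, at 6.47, 6.22 and 6.26 in TCF-1 KO DN3 cells and at 6.33, 6.32 and 6.42 in WT DN3 cells. Every lymphoma lay below every WT DN3 array, with a difference of -0.20 (95% interval -0.39 to -0.01, limma adjusted p = 0.28). Groups that do not overlap were found for 10.3% of all genes in that comparison.

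Nfatc2, the NFAT1 gene, stood at 5.43, 5.81 and 5.99 at the lowest, median and highest lymphoma, at 5.94, 5.66 and 5.73 in TCF-1 KO DN3 cells and at 6.00, 5.76 and 5.68 in WT DN3 cells. Nfatc3, which encodes a further calcineurin-dependent NFAT factor of thymocytes, stood at 8.30, 8.60 and 8.72 at the lowest, median and highest lymphoma. In TCF-1 KO DN3 cells Nfatc3 stood at 8.39, 8.48 and 8.16, and in WT DN3 cells at 8.38, 8.64 and 8.45. The groups of both genes overlapped in each comparison, and the difference with the lowest p was that of Nfatc3 between lymphomas and TCF-1 KO DN3 cells, at 0.21 (95% interval -0.04 to 0.47, limma adjusted p = 0.278).

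The store sensor gene Stim1 stood at 5.94, 6.13 and 6.42 at the lowest, median and highest lymphoma, at 5.93, 6.33 and 5.95 in TCF-1 KO DN3 cells and at 6.09, 6.20 and 5.99 in WT DN3 cells. The channel gene Orai1 stood at 5.53, 5.66 and 5.68 at the lowest, median and highest lymphoma, at 5.42, 5.70 and 5.73 in TCF-1 KO DN3 cells and at 5.68, 5.84 and 5.82 in WT DN3 cells. Both genes overlapped between groups. Their largest difference was -0.16 for Orai1 between TCF-1 KO and WT DN3 cells (95% interval -0.44 to 0.11, limma adjusted p = 0.54).

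Over the 6 genes never called and the 3 comparisons, differences ran from -0.20 to 0.21, and the 95% intervals reached from 0.737-fold to 1.38-fold. Signals of these genes are not compared with one another, since probes differ in brightness.

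**Figure D2:**
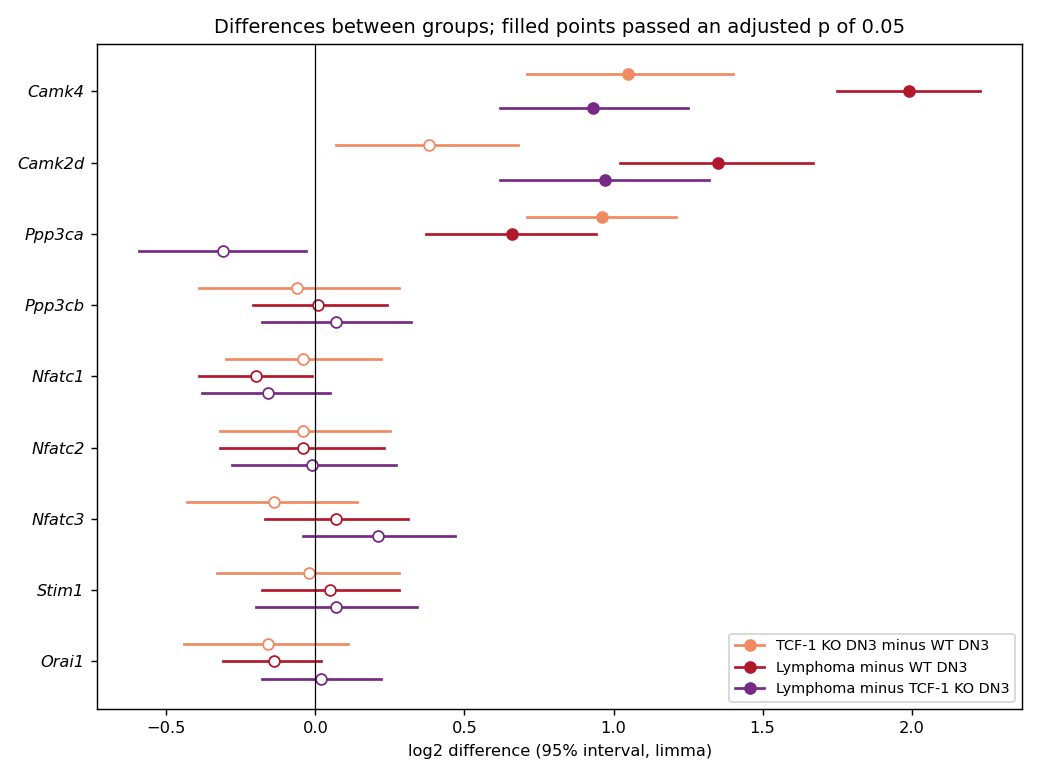
Log2 differences (x axis) of the 9 genes (y axis) in the 3 comparisons, with 95% intervals from limma. Filled points had an adjusted p under 0.05. Camk4 lies at 1.05, 1.99 and 0.93 and Ppp3ca at 0.96, 0.66 and -0.31 for TCF-1 KO DN3 minus WT DN3, lymphoma minus WT DN3 and lymphoma minus TCF-1 KO DN3, while the 6 genes from Ppp3cb down lie within -0.20 and 0.21.

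By count, 2 of the 9 genes rose, none fell and 7 did not pass in TCF-1 KO DN3 against WT DN3 cells, where 1.99% of all genes were called, 0.568% higher and 1.42% lower. With the replicate block 3 of the 9 rose, where 9.23% of all genes were called. Arrays of the groups did not overlap for 3 of the 9, against 22.0% of all genes. In lymphomas against WT DN3 cells 3 rose, none fell and 6 did not pass, against 5.82% of all genes, 2.96% higher and 2.86% lower. For 4 of the 9 the arrays did not overlap, against 10.3% of all genes. In lymphomas against TCF-1 KO DN3 cells 2 rose, none fell and 7 did not pass, against 6.62% of all genes, 4.50% higher and 2.12% lower. For 2 of the 9 the arrays did not overlap, against 13.6% of all genes. The median difference of the 9 genes was -0.04, 0.05 and 0.07 in these comparisons, against 0.03, -0.01 and -0.03 over all genes tested. The members were picked as one pathway with earlier results known, so these counts describe the genes and set no list apart.

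**Figure D3:**
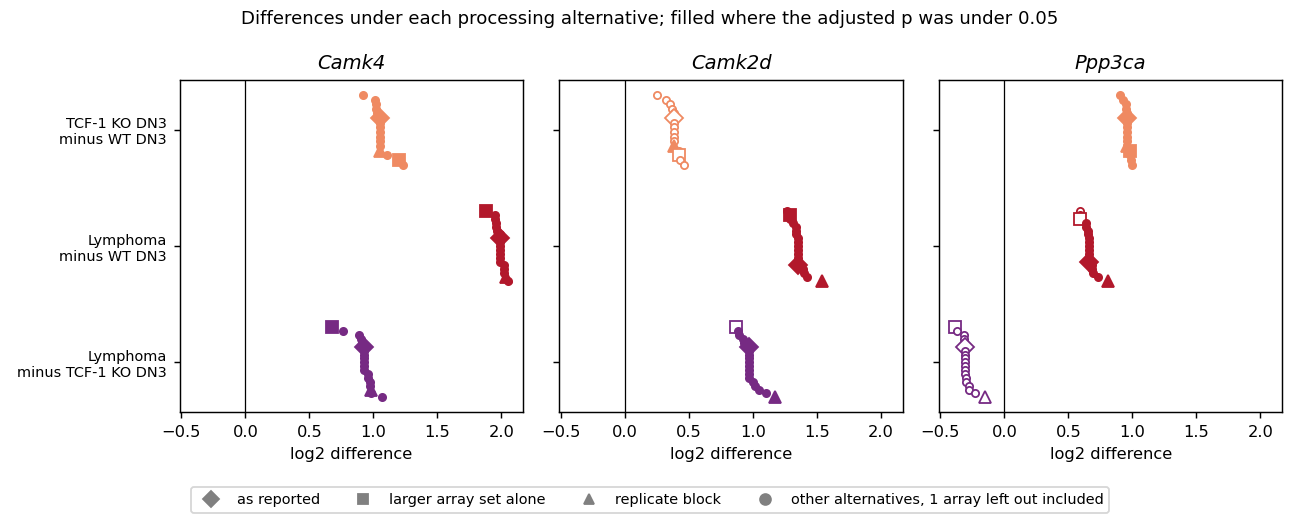
Log2 difference (x axis) of Camk4, Camk2d and Ppp3ca in each comparison (y axis) under every processing alternative. Diamonds are the reported values, squares the larger array set alone, triangles the replicate block and circles the remaining alternatives, and filled symbols had an adjusted p under 0.05. Camk4 stays filled throughout, from 0.92 to 1.23 in TCF-1 KO DN3 minus WT DN3 and from 0.68 to 1.07 in lymphoma minus TCF-1 KO DN3.

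The spread among the lymphomas differed between the 3 called genes. Camk4 had an SD of 0.18 over the 6 tumours and Ppp3ca one of 0.23, against 0.32 and 0.03 over the 3 TCF-1 KO DN3 arrays and 0.10 and 0.11 over the 3 WT DN3 arrays. Camk2d had an SD of 0.28 over the tumours, against 0.23 in TCF-1 KO DN3 and 0.11 in WT DN3 cells. Lymphoma 2 was the highest tumour for Camk4 and Ppp3ca, and lymphoma 3 for Camk2d. Lymphoma 5 was the lowest for Ppp3ca, lymphoma 3 for Camk4 and lymphoma 6 for Camk2d. With 3 arrays a DN3 SD is imprecise, and these spreads were not tested against each other.

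Genes that act between the receptor and the calcium store were measured in a further list of 12, of which 10 were tested. For this list and those below, the share of all genes called between the DN3 groups was 1.99%, or 9.23% with the replicate block. It was 5.82% in lymphomas against WT DN3 cells and 6.62% in lymphomas against TCF-1 KO DN3 cells. In TCF-1 KO DN3 against WT DN3 cells 2 rose, none fell and 8 did not pass: the kinase gene Fyn rose by 0.88 (limma adjusted p = 0.0359) and Txk, a Tec family kinase gene, by 0.75 (limma adjusted p = 0.011). Neither call held under all alternatives, with adjusted p up to 0.132 for Fyn and 0.0854 for Txk. With the replicate block 3 of the list were higher and 2 lower: Zap70 (0.60, limma adjusted p = 0.0138) joined Fyn and Txk, while Plcg1 (-0.45, limma adjusted p = 0.0204) and the exchange factor gene Vav1 (-0.39, limma adjusted p = 0.0451) were lower. In lymphomas against WT DN3 cells 3 rose, 2 fell and 5 did not pass, against 5.82% of all genes called. Zap70, the kinase that couples the receptor's zeta chain to LAT, rose by 1.17 (limma adjusted p = 0.00043), beside Fyn (1.54) and the Ras exchange factor gene Rasgrp1 (0.91). Themis, a thymocyte adaptor of receptor signalling, fell by 0.73 and the phospholipase gene Plcg2 by 0.39, a call lost in the larger array set alone (adjusted p = 0.152).

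Of that list, 3 genes rose in lymphomas against TCF-1 KO DN3 cells, none fell and 7 did not pass, against 6.62% of all genes called. Plcg1, the phospholipase that makes IP3 downstream of LAT, rose by 0.63 (limma adjusted p = 0.012), Fyn by 0.66 and Rasgrp1 by 0.56. All 3 calls were lost in the larger array set alone, with adjusted p of 0.0527, 0.105 and 0.121.

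Store and entry genes other than Stim1 and Orai1 were 18 tested of 20. Of all genes, 1.99%, 5.82% and 6.62% were called in the 3 comparisons, in the order they follow here. None was called in TCF-1 KO DN3 against WT DN3 cells. In lymphomas against WT DN3 cells P2rx7 and the mitochondrial uniporter gene Mcu (0.48, limma adjusted p = 0.0442) rose, none fell and 16 did not pass, and the Mcu call was lost under several alternatives with adjusted p up to 0.157. In lymphomas against TCF-1 KO DN3 cells P2rx7, the IP3 receptor gene Itpr2 (0.51) and the channel kinase gene Trpm7 (0.50) rose, none fell and 15 did not pass. These calls too were lost in the larger array set alone, with adjusted p of 0.0628, 0.126 and 0.267. Itpr2 stood at 9.66 in lymphomas, 9.15 in TCF-1 KO DN3 and 9.40 in WT DN3 cells on average. Stim2, Orai2 and Orai3, the relatives of the sensor and the channel, were called in no comparison.

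Of 15 tested genes for calmodulin, calcineurin partners and other calmodulin-dependent kinases, none was called in TCF-1 KO DN3 against WT DN3 cells, and with the replicate block Ppp3r1, the regulatory subunit of calcineurin, was lower (-0.45, limma adjusted p = 0.0403). Camk2a, a CaMKII subunit known from neurons, fell by 0.62 in lymphomas against WT DN3 cells (limma adjusted p = 0.00056), none rose and 14 did not pass. Of all genes 5.82% were called there. Mean Camk2a signal was low, at 5.06 in lymphomas, 5.41 in TCF-1 KO DN3 and 5.68 in WT DN3 cells, near the filter of 4.78. In lymphomas against TCF-1 KO DN3 cells 3 rose, 1 fell and 11 did not pass, against 6.62% of all genes called. The risers were Ppp3r1 (0.60), Fkbp1a, which encodes the FK506 target FKBP12 (0.49), and Camk2g (0.38), while Camk2a fell by 0.35. All 4 were lost in the larger array set alone, with adjusted p of 0.063 to 0.264. Ppp3r1 stood at 7.09 to 7.44 in lymphomas, 6.32 to 7.16 in TCF-1 KO DN3 and 7.07 to 7.30 in WT DN3 cells. Ppp3cc, the third catalytic isoform, stood within 0.04 of no difference in each comparison.

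The list of NFAT relatives and the kinases that rephosphorylate NFAT, which also held Nfatc2ip, Homer2, Homer3 and Lrrk2, had 12 tested of 13. The shares of all genes called were again 1.99%, 5.82% and 6.62% in the order of comparisons below. Nfat5, the calcineurin-independent factor of the osmotic stress response, fell by 0.69 in TCF-1 KO DN3 against WT DN3 cells (SE 0.15, limma adjusted p = 0.0476), none rose and 11 did not pass. That call was lost without any 1 of 5 arrays, all 3 WT DN3 arrays among them, with adjusted p up to 0.212. With the replicate block 2 of the list were lower, Nfat5 and the casein kinase gene Csnk1e (-0.37, limma adjusted p = 0.0493). In lymphomas against WT DN3 cells none of the 12 was called. The casein kinase gene Csnk1a1 rose in lymphomas against TCF-1 KO DN3 cells by 0.53 (limma adjusted p = 0.0206, 0.152 in the larger array set alone), none fell and 11 did not pass.

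Among 21 genes known as NFAT targets in T cells, 14 were tested, and the cytokine genes Il2, Il3, Il4 and Csf2 lay under the filter on dim genes. None was called in TCF-1 KO DN3 against WT DN3 cells, but with the replicate block Ctla4, an inhibitory receptor gene, was higher by 0.87 (limma adjusted p = 0.000613, against 0.0941 without the block). Ctla4 stood at 8.51, 9.30 and 8.48 in TCF-1 KO DN3 cells and at 7.55, 8.28 and 7.84 in WT DN3 cells, with no overlap. Between the DN3 groups 22.0% of all genes showed no overlap. Rcan1, the calcineurin inhibitor whose transcription calcineurin drives, stood at 5.37 to 5.68 in lymphomas, 5.26 to 5.41 in TCF-1 KO DN3 and 4.98 to 5.27 in WT DN3 cells and was not called (lymphoma against WT DN3 0.30, limma adjusted p = 0.16). In lymphomas against WT DN3 cells Tox, an HMG-box factor gene, rose by 0.79 (limma adjusted p = 0.000667), while Ctla4 (-1.78), the ubiquitin ligase gene Cblb (-0.73) and Ndrg1 (-0.71) fell and 10 did not pass. In that comparison 5.82% of all genes were called. The Ndrg1 call was lost in the larger array set alone (adjusted p = 0.0535). In lymphomas against TCF-1 KO DN3 cells Ctla4 fell by 2.65 (limma adjusted p = 2.63e-05) and Ndrg1 by 0.80, none rose and 12 did not pass. Of all genes 6.62% were called there. Egr2, Egr3 and Nr4a1, immediate-early genes of receptor signalling, were called in no comparison. Every lymphoma, at 5.62 to 6.95, lay above every WT DN3 array, at 5.36 to 5.61, for Egr2 (0.62, limma adjusted p = 0.226). Groups did not overlap for 10.3% of all genes in that comparison. Lymphoma 4 was the highest tumour for Egr2, at 6.95, and for Nr4a1, at 6.35, where the other 5 stood at 5.14 to 5.45.

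**Figure D4:**
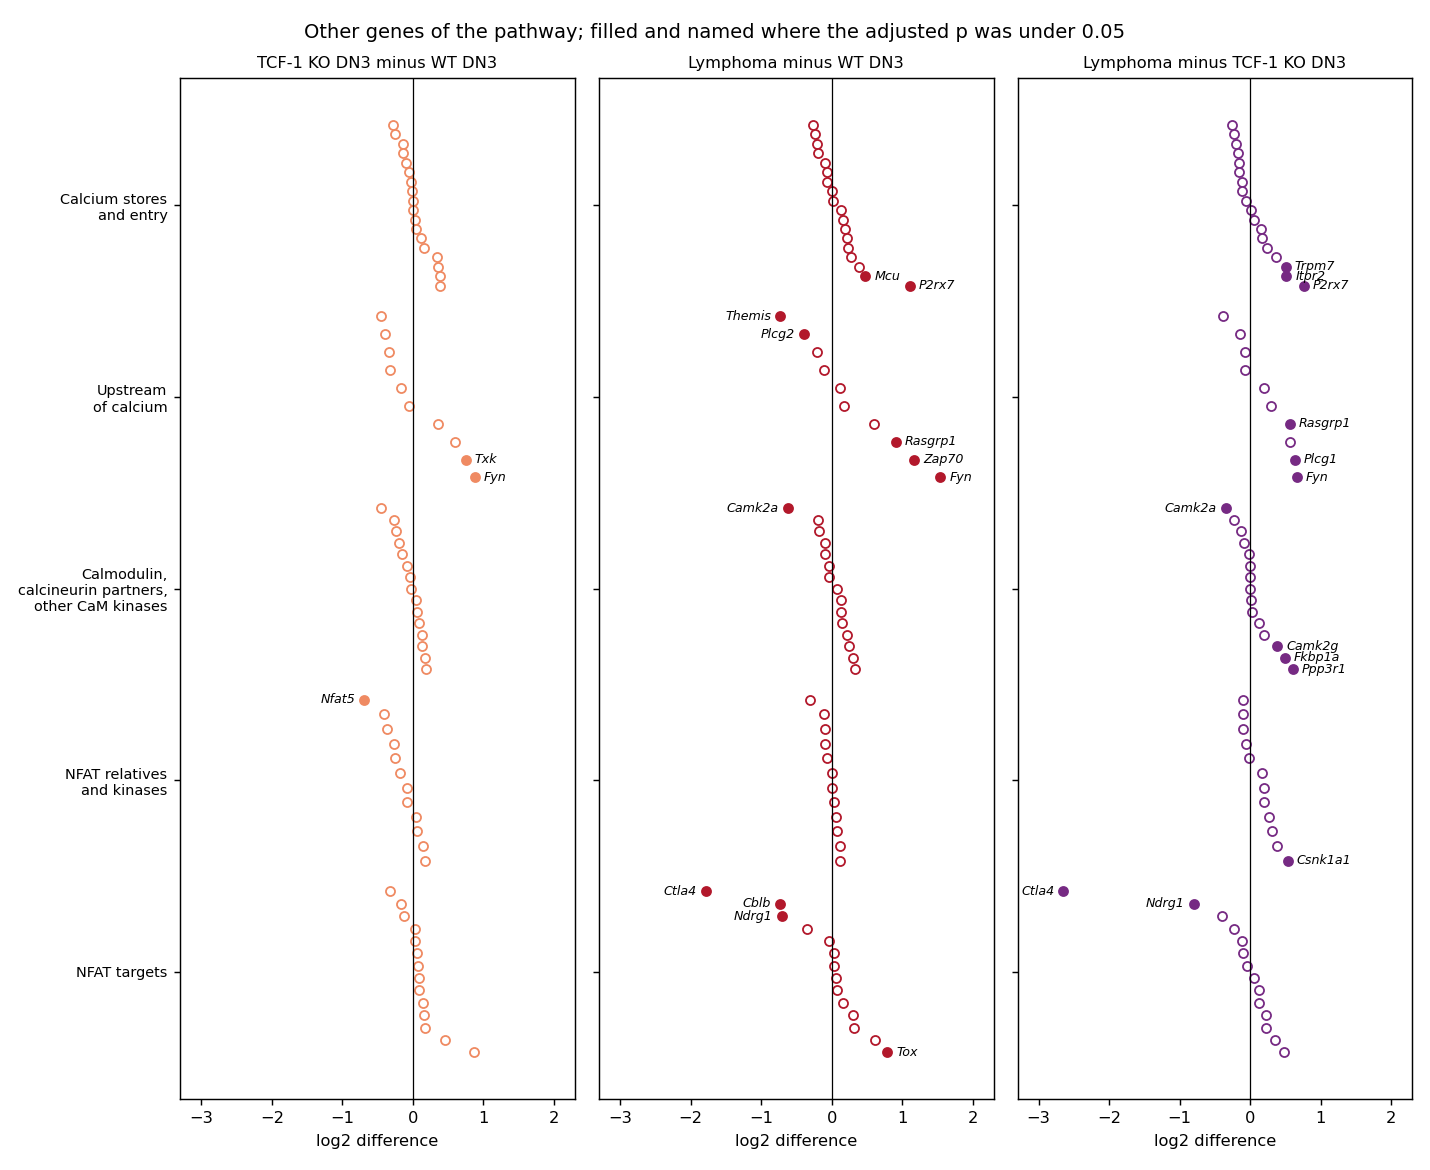
Log2 difference (x axis) of the other tested genes of the pathway in 5 lists (y axis), 1 panel for each comparison. Each point is a gene, ordered by value within its list, and filled points with a name had an adjusted p under 0.05. The list labelled upstream of calcium holds Fyn at 0.88 and Txk at 0.75 in TCF-1 KO DN3 minus WT DN3, and Ctla4 is the lowest point in both lymphoma panels, at -1.78 and -2.65.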

How the data were processed

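Per the labels' protocols, sorted cells of 12 mouse samples gave RNA that NuGEN Pico amplification prepared for Affymetrix arrays. The deposited values are log2 signals per transcript cluster; RMA and Partek are named in the submitters' processing notes, with versions and settings not given in the sources used here. Base 2 is inferred from the values and from RMA's usual output. RMA gives arrays a common distribution, so a difference is always relative to the remaining genes, and folds of dim or very bright genes are understated.

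The table had 35556 rows. The platform annotation gave 21789 rows 1 symbol, 1621 several and 12146 none. The highest-mean row stood for a gene, and 4985 dim genes, whose means fell below the 25th percentile (log2 4.78), were not tested. Comparisons were fitted with limma 3.58.1 in R 4.3.3 (lmFit, eBayes, two-sided), on 2 groups each, adjusted over 14953 genes. On simulated data with 100 genes changed by each size the fit recovered 87% of 2-fold and 97% of 4-fold changes between the DN3 groups, with 10 false calls. The simulated noise was independent between arrays. It held neither the array sets nor deviations shared by arrays, so recovery in the real data may differ. Genes named are the 10 members, up to 8 called genes of each pathway list, and the 3 nearest profiles of each called member; further genes of those lists and markers were named after their values were seen. Members and lists were chosen with earlier results of these data known.

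The array sets come from unnamed rows with a gap of 1 log2 unit or more between arrays (34 rows, against 26 for the next split). Same-numbered TCF-1 KO and WT DN3 arrays deviated together from their group means (correlations of 0.51, 0.42 and 0.25 over genes for numbers 1, 2 and 3). DN3 arrays of different numbers had correlations of -0.41 to 0.06. WT DN3 replicate 1 reached 0.45 with lymphoma 2, also of the smaller array set, and WT DN3 replicate 3 reached 0.26 with lymphoma 4. For number 1 the values cannot tell pairing from the array set. The main fit paired no arrays, and the replicate block is an alternative. Lymphoma arrays had correlations of 0.44 and 0.38 with the WT and TCF-1 KO DN3 arrays of number 1. These were -0.22 and -0.26 for number 2 and 0.15 and 0.11 for number 3. Lymphoma 2 lies in the smaller array set and both DN3 replicates 2 in the larger. The replicate block still joined these lymphomas to DN3 arrays by number, so its lymphoma values rest on a pairing that number 2 did not show. Alternatives covered scaling, filters, averaging of rows, the variance model, 1 fit to all arrays, the array set, the replicate block and leaving out each array.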

Additional observations from a re-analysis of the deposited data

Results flagged for a closer look

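Among the 6 lymphomas, 107 genes were checked: the 9 analysed genes and every tested gene of the pathway and marker lists. In 5 of them 1 tumour's distance to its nearest neighbour exceeded Dixon's 95% critical share of the range; chance alone gives such a gap in about 1 in 20 groups, so a number like this can arise by chance. Nfatc1 stood at 5.93 in lymphoma 4, against 6.17 to 6.23 in the other 5. In the same tumour Ctla4 stood at 6.72, against 5.80 to 6.09, and Nr4a1 at 6.35, against 5.14 to 5.45. Il2ra stood at 9.89 in lymphoma 2, against 10.35 to 10.62 in the others, and Epcam at 4.59 in lymphoma 6, against 4.84 to 4.96. List genes under the filter on dim genes were not checked.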

How the results depend on the processing

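Of the alternatives tried for the called differences of Camk4, Camk2d and Ppp3ca, 117 kept direction and side of the threshold and 3 lost the call; for the differences that were not called, 308 kept both, 30 changed sign and 1 passed the threshold, Camk2d between the DN3 groups under the replicate block (0.38, limma adjusted p = 0.0433). For the other called pathway genes and profiles, 397 kept the call and 95 lost it. The number of genes called in TCF-1 KO DN3 against WT DN3 cells was 298 as reported, 754 with the array set as a term, 144 in the larger array set alone, 1380 with the replicate block and 57 to 443 without 1 array; without WT DN3 replicate 2, which gave 57, 31 were higher and 26 lower, against 85 and 213 as reported, and without TCF-1 KO DN3 replicate 3, 68 and 58. In lymphomas against WT DN3 cells it was 871, against 1092 with the array set as a term, 549 in the larger set, 863 with the replicate block and 560 to 872 without 1 array. In lymphomas against TCF-1 KO DN3 cells it was 990, against 1702 with the array set as a term, 325 in the larger set, 999 with the replicate block and 431 to 1361 without 1 array. In the larger set, 2 and not 3 of the 9 genes were called in lymphomas against WT DN3 cells. In lymphomas against TCF-1 KO DN3 cells 1 and not 2 was called there. Without 1 array the counts were 2, 2 to 3 and 2 in the 3 comparisons. Sign changes touched differences near 0. In the larger set, TCF-1 KO minus WT DN3 turned to 0.03 for Ppp3cb and 0.04 for Stim1, lymphoma minus WT DN3 to -0.01 for Ppp3cb, and lymphoma minus TCF-1 KO DN3 to -0.04 for Ppp3cb and -0.10 for Orai1. With the replicate block, which uses the 3 lymphomas whose numbers the DN3 groups share, lymphoma minus WT DN3 turned to 0.11 for Nfatc2 and -0.04 for Nfatc3, and lymphoma minus TCF-1 KO DN3 to 0.15 for Nfatc2, which was 0.02 with arrays centred on their medians. Without 1 array, TCF-1 KO minus WT DN3 ran from -0.14 to 0.08 for Ppp3cb, -0.11 to 0.01 for Nfatc1, -0.12 to 0.06 for Nfatc2 and -0.15 to 0.04 for Stim1. Lymphoma minus WT DN3 ran from -0.04 to 0.13 for Ppp3cb, -0.11 to 0.05 for Nfatc2 and -0.01 to 0.10 for Stim1, and lymphoma minus TCF-1 KO DN3 from -0.07 to 0.16 for Ppp3cb, -0.07 to 0.07 for Nfatc2 and -0.08 to 0.08 for Orai1. The smaller sets and leave-outs hold fewer arrays; the cause of the other shifts was not tested.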
